A study of Mus musculus with 6 samples.

Results

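The genes described here are 41 genes whose products copy DNA in S phase, from the proteins that load the replicative helicase onto origins to the enzymes that supply nucleotides. They were followed in RNA from 6 mouse hearts. Each gene was represented by a single Affymetrix probe set, the one of highest mean over the 6 arrays among those annotated to that gene alone. By this rule 40 of the 41 genes had a probe set, out of 18193 genes that did, and 39 were bright enough to be tested, out of 13572 genes tested. Chaf1a, the large subunit of a histone chaperone that works behind the fork, had no probe set of its own. Tyms, which makes thymidylate, had only dim ones and is described at the end of the results on single genes.

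The hearts came from 3 wild-type mice and 3 EphB4 mutant mice, as the design text counts them, all of the strain given as C57B6, with no treatment or time named. EphB4 is a receptor tyrosine kinase whose ligand is EphrinB2, and the title of the study asks about EphrinB2 in the myocardium and the building of the ventricular wall. The kind of EphB4 mutation, the cells that carry it, and the age and sex of the mice are stated neither in the labels nor in the design text. The sample descriptions carry a letter code besides the genotype: hearts 1 and 2 of either genotype are coded eI, and heart 3 of either genotype is coded eM. What eI and eM abbreviate is not stated either, so they are used only as labels. The values are log2 intensities, so a difference of 1 is a doubling.

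Before a cell copies its DNA, the origin recognition complex, Cdc6 and Cdt1 place the ring of Mcm2 to Mcm7 proteins around DNA in G1. Cdc45, the GINS complex and Mcm10 turn the ring into a moving helicase when S phase begins. DNA polymerase alpha and its primase start each new strand, the clamp loader (replication factor C) sets the PCNA ring onto the primed end, and polymerases delta and epsilon extend it. Fen1 and Lig1 join the fragments of the lagging strand. The genes for these proteins are textbook targets of the E2F factors, which are released from the Rb protein under cyclin E and Cdk2. The fetal heart grows by division of its muscle cells, which largely leave the cell cycle after birth.

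Promoter sequences of the genes were read from RefSeq (build GRCm38.p6) to show what they share beyond the rule that chose them. Entries matched 34 of the 41 genes by symbol. Mcm4, Gins1, Gins2, Prim2, Pole, Rfc2 and Ccne2 had no entry in the table used. Windows ran from 250 bases before to 50 bases after the annotated start. They were searched on both strands for TTTCCCGC, TTTGGCGC, TTTCGCGC and TTTGCCGC, the E2F letters, and for CCAAT, the letters bound by NF-Y. E2F letters stood in the window of 13 of 34 replication genes (38.2%), against 2.6% of the 27025 genes of the table and 4.45% of the 10909 of them tested on the arrays. CCAAT stood in 21 of 34 (61.8%), against 41.1% and 42.3%. Both kinds stood in 9 of 34 (26.5%), against 1.26% and 2.17%. The backgrounds were not matched for base composition, and a match of letters is not evidence of binding.

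The stretches below are shown because they hold several E2F matches (Mcm5 and Mcm6), a single one (Gins3, Rfc3 and Pola1) or none (Mcm3 and Pcna), and because the array results turn on several of these genes. Each is written 5′ to 3′ on the strand of its gene, ends before the start of the gene and lies outside every gene of the RefSeq table. The exception is Pola1, shown only as 30 bases around its match, since a further annotated transcript begins upstream. Capitals mark the E2F letters, CCAAT or their reverse complements. The Mcm5 stretch is chr8:75109268-75109467 (plus strand), the Mcm6 stretch chr1:128359706-128359905 (minus strand) and the Gins3 stretch chr8:95633359-95633558 (plus strand). The Rfc3 stretch is chr5:151651209-151651408 (minus strand) and the Pola1 stretch chrX:93632275-93632304 (minus strand). The Mcm3 stretch is chr1:20820313-20820512 (minus strand) and the Pcna stretch chr2:132253181-132253337 (minus strand).
Mcm5: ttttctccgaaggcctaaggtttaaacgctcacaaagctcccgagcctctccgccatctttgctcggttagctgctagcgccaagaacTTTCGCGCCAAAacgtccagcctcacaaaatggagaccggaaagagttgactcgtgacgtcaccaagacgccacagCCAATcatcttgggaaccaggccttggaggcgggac
Mcm6: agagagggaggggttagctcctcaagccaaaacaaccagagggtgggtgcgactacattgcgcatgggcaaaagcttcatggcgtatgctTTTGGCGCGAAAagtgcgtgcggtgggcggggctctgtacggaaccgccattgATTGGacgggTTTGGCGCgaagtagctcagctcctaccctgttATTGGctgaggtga
Gins3: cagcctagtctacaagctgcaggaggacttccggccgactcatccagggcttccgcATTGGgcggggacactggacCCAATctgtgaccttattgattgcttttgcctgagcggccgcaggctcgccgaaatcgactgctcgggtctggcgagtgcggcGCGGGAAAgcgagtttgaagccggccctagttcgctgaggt
Rfc3: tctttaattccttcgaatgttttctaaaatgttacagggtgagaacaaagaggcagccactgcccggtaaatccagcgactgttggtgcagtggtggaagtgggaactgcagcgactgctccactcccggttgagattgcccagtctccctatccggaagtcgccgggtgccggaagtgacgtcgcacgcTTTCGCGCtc
Pola1: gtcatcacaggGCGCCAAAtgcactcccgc
Mcm3: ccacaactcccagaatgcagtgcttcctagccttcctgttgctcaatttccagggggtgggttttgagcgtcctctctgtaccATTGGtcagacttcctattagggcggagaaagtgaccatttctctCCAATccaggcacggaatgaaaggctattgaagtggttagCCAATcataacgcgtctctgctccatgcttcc
Pcna: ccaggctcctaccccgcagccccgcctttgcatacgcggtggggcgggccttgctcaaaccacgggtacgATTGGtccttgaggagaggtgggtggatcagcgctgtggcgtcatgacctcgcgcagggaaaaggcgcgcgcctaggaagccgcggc
In Mcm5 and in Mcm6 a pair of E2F matches on opposite strands overlap by 4 bases within a single run of capitals. Mcm3 has E2F letters, and Rfc3 a further E2F match, in the 50 bases after the start, which are not shown. Pcna has none of these letters in its window, which says nothing about whether E2F acts on it elsewhere.

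The label heart fitted the arrays, since all 12 heart muscle markers listed were tested and their mean per heart was 13.23 to 13.47. The wild-type 3 and mutant 3 hearts, both eM, stood apart from the 4 eI hearts: 1397 of 13572 genes (10.3%) differed between eM and eI at an adjusted p under 0.05 (limma, genotype adjusted). The 3′ minus 5′ difference of the actin control probe sets was 0.51 and 0.77 in the eM hearts and 0.28 to 0.41 in the eI hearts. The signal of the 18S control was 11.17 and 10.48 in the eM hearts and 9.80 to 10.16 in the eI hearts. Xist read 11.51 to 12.33 in every wild-type heart, 11.75 in mutant heart 2 and 6.73 and 6.78 in mutant hearts 1 and 3, so sex was not balanced between the genotypes. Results are therefore given with and without single hearts where these decide a value. No fit was adjusted for sex, and none left out mutant hearts 1 and 3 together.

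No replication gene differed between the genotypes at the threshold of the test. Of the 39 tested, 20 were higher and 19 lower in the mutants, with a median difference of 0.01 against 0.00 over all genes. None passed an adjusted p of 0.05, none reached an unadjusted p of 0.05, and in none were all 3 mutant hearts above or below all 3 wild-type hearts. Over all 13572 genes limma called 0 (0%) at an adjusted p of 0.05, 0.936% reached an unadjusted p of 0.05, and in 4.39% the genotypes did not overlap (2.14% with the mutants higher and 2.25% lower). The smallest adjusted p among the replication genes was 0.9997 (limma). The differences ran from −0.13 for Gins3 to 0.18 for Ccne2. For 34 of the 39 genes the 95% interval of the difference lay inside a change of 1.5-fold either way, and for all 39 inside 2-fold, with limits from −0.65 for Mcm3 to 0.88 for Ccne2. This fit has no covariate, so its p-values and intervals also hold the spread between eM and eI hearts. The mean over the 39 genes per heart was 10.28 ± 0.07 (SD) over the 3 wild-type and 10.29 ± 0.12 (SD) over the 3 mutant hearts. In whole hearts, the share of dividing cells and the RNA per dividing cell cannot be told apart.

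**Figure D1:**
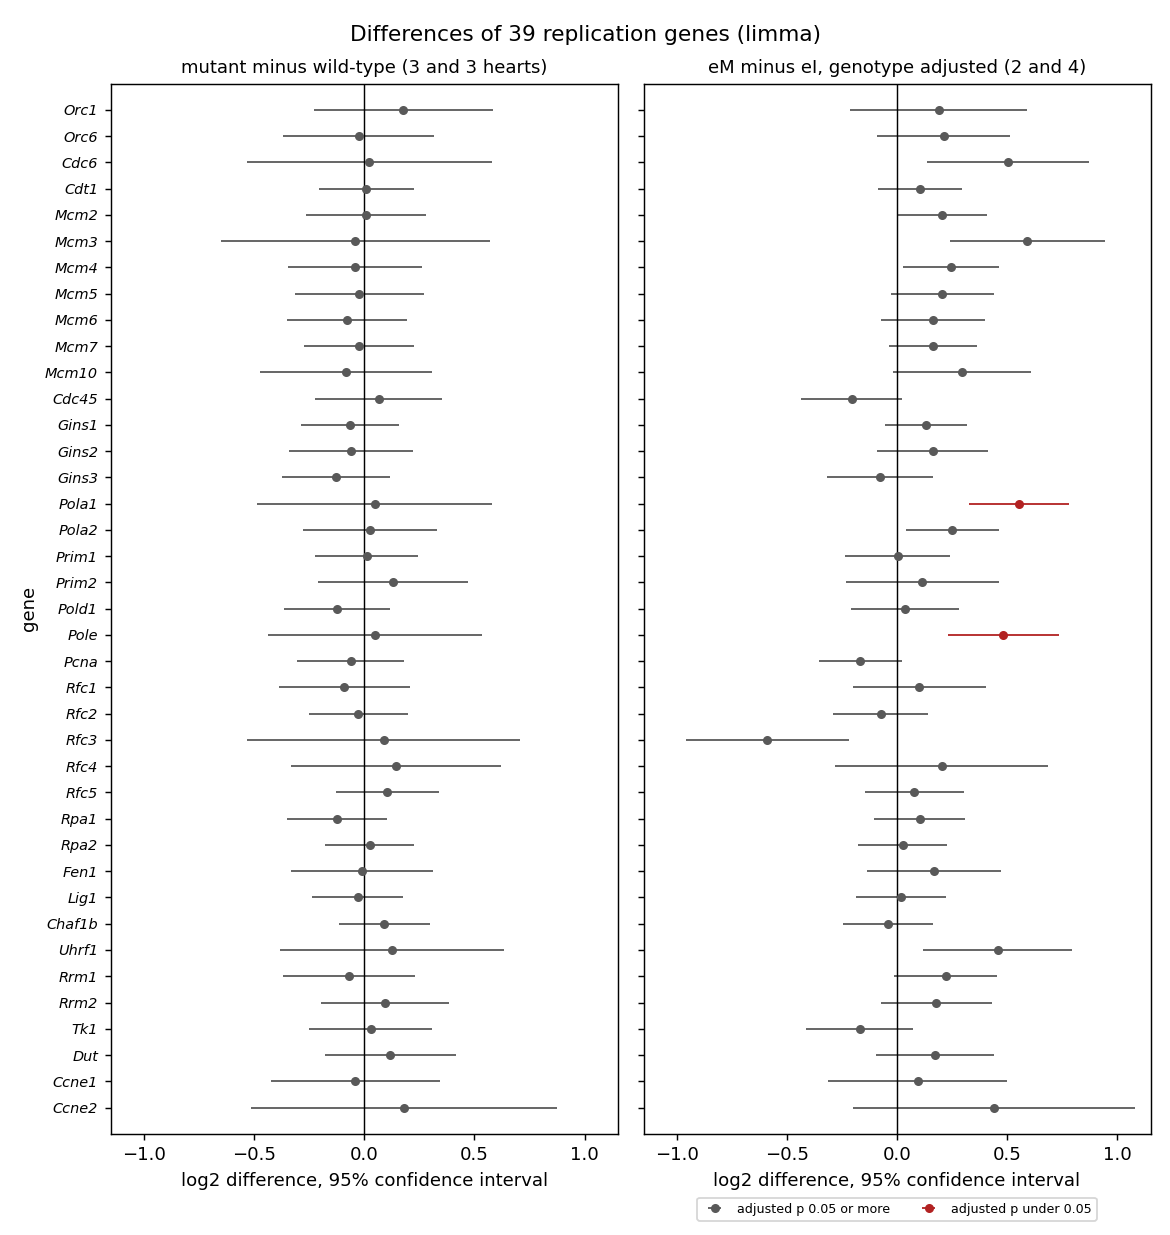
Differences of the 39 tested replication genes with 95% confidence intervals from limma, mutant minus wild-type on the left (3 hearts each) and eM minus eI on the right (2 and 4 hearts, genotype adjusted), on the log2 scale; red marks an adjusted p under 0.05. Every interval on the left crosses 0, while on the right 32 of 39 points lie above 0 and Pola1 and Pole are red.

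The genes of smallest p in the comparison of genotypes show how small these differences were. Orc1, the largest subunit of the origin recognition complex, read 6.44, 7.01 and 6.88 in wild-type hearts 1 to 3 and 6.97, 6.79 and 7.11 in mutant hearts 1 to 3. The difference of 0.18 (95% interval −0.23 to 0.58) was smaller than the range within the wild-type hearts. Rfc5, a small subunit of the clamp loader, read 10.07, 10.00 and 9.98 in wild-type and 10.04, 10.07 and 10.26 in mutant hearts. Mutant heart 1 lay inside the wild-type range, mutant heart 2 at its upper edge and mutant heart 3 above it. Chaf1b, the middle subunit of the chromatin assembly factor that packs new DNA, read 9.09, 9.13 and 8.99 in wild-type and 9.18, 9.11 and 9.19 in mutant hearts, a difference of 0.09 with mutant heart 2 inside the wild-type range.

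Among the genes lower in the mutants, Rpa1, the large subunit of the protein that coats single-stranded DNA, read 12.13, 12.08 and 12.11 in wild-type and 11.92, 11.91 and 12.12 in mutant hearts. Mutant hearts 1 and 2 lay below every wild-type heart and mutant heart 3 among them. Gins3, a subunit of the helicase activator GINS, read 7.74, 8.0 and 7.81 in wild-type and 7.75, 7.75 and 7.66 in mutant hearts, so that the genotypes overlapped. Pold1, the catalytic subunit of polymerase delta, read 9.22, 9.45 and 9.37 in wild-type and 9.29, 9.13 and 9.25 in mutant hearts. Its difference of −0.12 was close to the SD of the wild-type hearts, 0.11 (n = 3).

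By role, the median difference between mutant and wild-type hearts lay between −0.06 for the 5 genes of helicase activation and 0.11 for the 2 genes of chromatin copying that were tested. The 4 primase and polymerase alpha genes were all higher (median 0.04), and 5 of the 6 Mcm2 to Mcm7 genes were lower (median −0.03). Origin licensing had a median of 0.02, the clamp and its loader 0.03, nucleotide supply 0.06 and the cyclins E 0.07. These counts depended on single hearts. Without mutant heart 3, 13 of 39 genes were higher and the median was −0.08. Without mutant heart 2, 27 were higher and the median was 0.04. Weighting the arrays by their quality left 9 higher with a median of −0.09. No replication gene was called in any of these fits.

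Between eM and eI hearts, most of the replication genes differed in the same direction. Of the 39 genes, 32 (82.1%) were higher in the eM hearts, against 44.8% of all genes, and the median difference was 0.16 against −0.03 over all genes. Few of these differences passed the test: limma called 2 genes higher (5.13%) and 0 lower, where 4.47% of all genes were called higher and 5.82% lower. An unadjusted p under 0.05 was reached by 9 genes (23.1%), against 30.4% of all genes. Both eM hearts lay above all 4 eI hearts for 16 genes (41%) and below them for 4 (10.3%), where the background was 20.8% and 23.8% (44.6% in either direction). Without mutant heart 3, 25 of 39 genes were higher and the median was 0.07. The 7 genes with a lower estimate in the eM hearts were Cdc45, Gins3, Pcna, Rfc2, Rfc3, Chaf1b and Tk1.

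**Figure D2:**
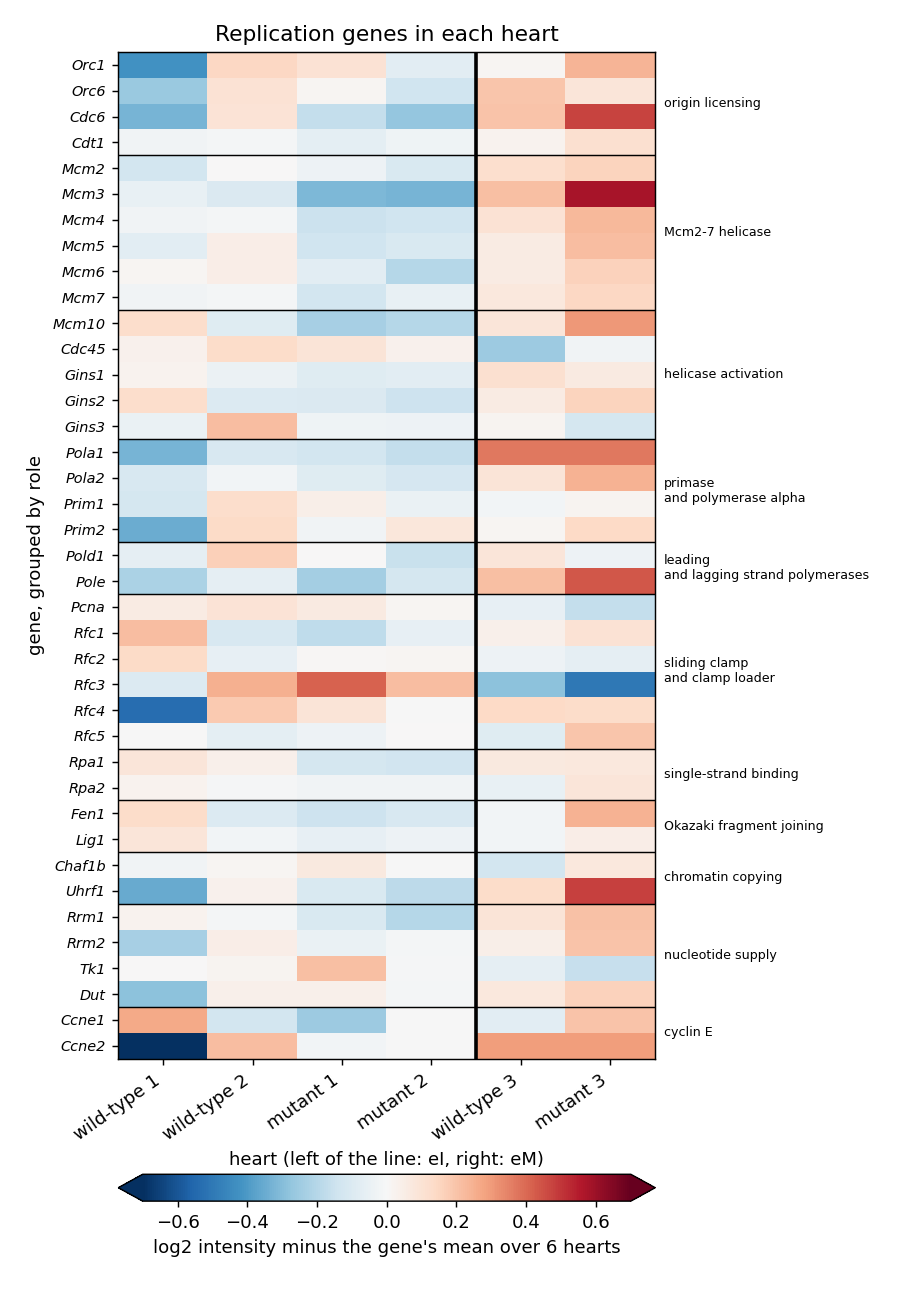
Log2 intensity of the 39 tested replication genes in each heart, minus the mean of that gene over the 6 hearts (colour scale, ending at 0.7 either way), grouped by role, with eI hearts left of the line and eM hearts right of it. Mutant heart 3 holds the highest value for 22 of 39 genes, the Mcm2 to Mcm7 block is above its mean in both eM hearts, and Rfc3 runs the other way.

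Pola1 and Pole were the genes that passed the test. Pola1 encodes the catalytic subunit of polymerase alpha and lies on chromosome X from 93304766 to 93632387. It read 8.73 and 8.94 in wild-type hearts 1 and 2, 8.92 and 8.89 in mutant hearts 1 and 2, and 9.42 in both eM hearts. The groups did not overlap, and the eM hearts were higher by 0.55 ± 0.09 (SE), 1.47-fold, with a 95% interval of 0.33 to 0.78 and an adjusted p of 0.0248 (limma, n = 2 and 4). The difference was 0.59 within wild-type and 0.52 within mutant hearts. Pole encodes the catalytic subunit of polymerase epsilon, which copies the leading strand, and lies on chromosome 5 from 110286319 to 110337468. It read 8.77 and 8.93 in wild-type and 8.75 and 8.86 in mutant eI hearts, and 9.20 and 9.42 in the wild-type and mutant eM hearts. The rise was 0.48 ± 0.10 (SE), 1.40-fold, with an interval of 0.23 to 0.73 and an adjusted p of 0.04 (limma).

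The differences stayed above 0 whichever heart was left out, at 0.50 to 0.59 for Pola1 and 0.35 to 0.61 for Pole, but the calls did not all hold. Each held without wild-type heart 1 or 2. Without wild-type heart 3 the adjusted p (limma) was 0.0953 for Pola1 and 0.0643 for Pole. Without mutant hearts 1, 2 and 3 in turn it was 0.0873, 0.11 and 0.212 for Pola1 and 0.132, 0.149 and 0.315 for Pole. Over all genes, 790 were called without wild-type heart 3 and 158, 2 and 0 without mutant hearts 1, 2 and 3. Their partners in the priming complex and at the fork differed by less: the difference was 0.25 for Pola2, 0.00 for Prim1, 0.11 for Prim2 (the 2 primase subunits) and 0.04 for Pold1, none of them called.

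**Figure D3:**
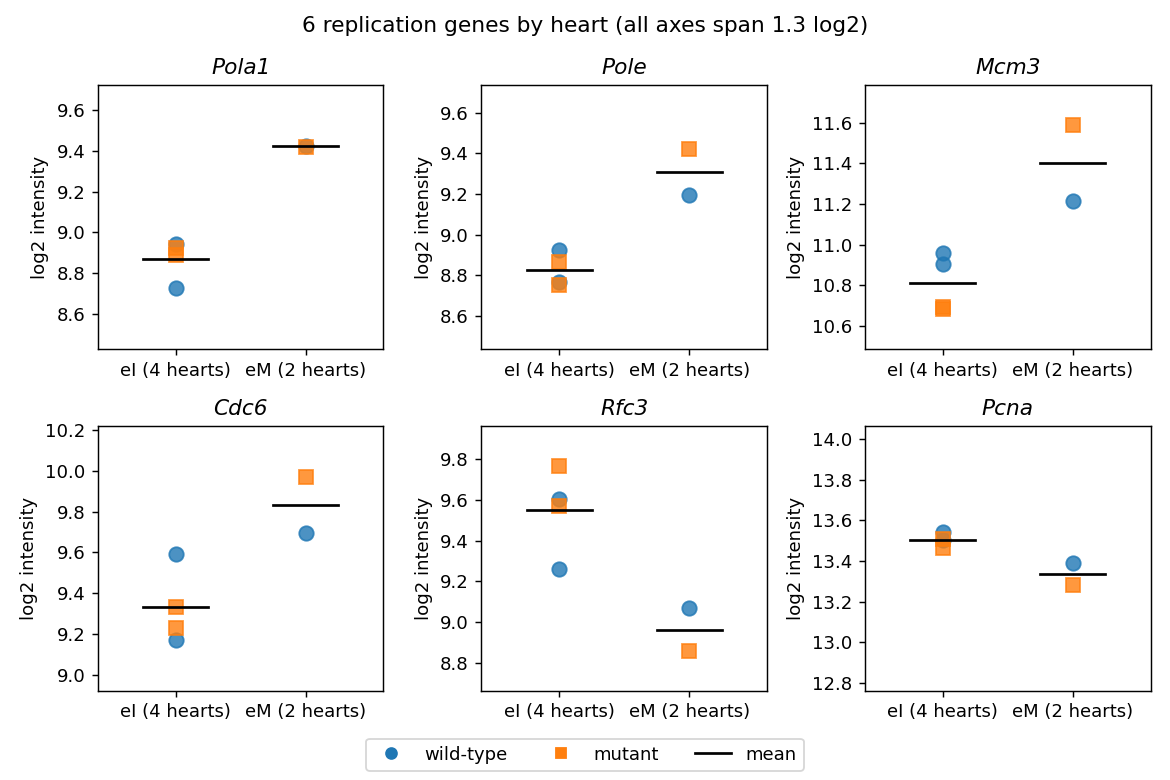
Log2 intensity of 6 replication genes in each heart, by the letters eI (4 hearts) and eM (2 hearts), with circles for wild-type, squares for mutant and lines for means; every axis spans the same length. Pola1, Pole, Mcm3 and Cdc6 lie higher in both eM hearts and Rfc3 and Pcna lower, and only Pola1 and Pole pass an adjusted p of 0.05.

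The genes of the helicase ring all had higher values in the eM hearts. By their brightest probe sets the median difference was 0.20. In these sets both eM hearts lay above all 4 eI hearts for all 6 of Mcm2 to Mcm7, as they did for 20.8% of all genes. None of the 6 was called. Among dimmer sets past the filter, some of Mcm2, Mcm3, Mcm5 and Mcm7 also lay apart. Further sets of Mcm3, Mcm5 and Mcm7 and those of Mcm4 and Mcm6 overlapped. Mcm3 had the largest difference of the 39. It read 10.96 and 10.91 in wild-type and 10.69 and 10.68 in mutant eI hearts, and 11.22 and 11.59 in the wild-type and mutant eM hearts. That is 0.59 ± 0.14 (SE), with an interval of 0.24 to 0.94 and an adjusted p of 0.0542 (limma), just above the threshold. The gap was wide for Mcm3 and narrow for others: Mcm6 read 11.43, 11.46, 11.34 and 11.21 in the eI hearts and 11.47 in wild-type heart 3, with 11.58 in mutant heart 3. Mcm5 read 11.92, 12.03, 11.85 and 11.88 in the eI hearts and 12.05 and 12.20 in the eM hearts. Mcm2, Mcm4 and Mcm7 differed by 0.20, 0.25 and 0.16.

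The 4 licensing genes tested also had higher values in the eM hearts (median 0.20), and none was called. Cdc6, the ATPase that helps load it, read 9.17 and 9.59 in wild-type and 9.33 and 9.23 in mutant eI hearts, and 9.70 and 9.97 in the eM hearts, a difference of 0.50 with an adjusted p of 0.085 (limma). Cdt1, its partner, differed little by its brightest probe set, at 11.96 to 12.01 in the eI hearts and 12.05 and 12.14 in the eM hearts, without overlap. The dimmer tested probe set of Cdt1 differed by 0.32, also without overlap, and was not called. Orc1 and Orc6 differed by 0.19 and 0.21 with overlapping groups. The activators of the ring did not share a sign. Mcm10 read 9.29, 9.09, 8.94 and 8.97 in the eI hearts and 9.26 and 9.48 in the eM hearts, so that the groups overlapped. Cdc45, which rides with the ring at the fork, lay lower in the eM hearts, at 8.06 and 8.29 against 8.34 to 8.44, a difference of −0.21 with an adjusted p of 0.199 (limma). Gins1 and Gins2 differed by 0.13 and 0.16, and Gins3 by −0.08.

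The clamp and its loader were the role with the lowest median, 0.00, and 3 of its 6 genes were higher. Rfc3, a small subunit of the loader, had the largest difference downward. It read 9.26 and 9.60 in wild-type and 9.77 and 9.57 in mutant eI hearts, and 9.07 and 8.86 in the wild-type and mutant eM hearts. The difference was −0.59 ± 0.15 (SE), with an interval of −0.96 to −0.22 and an adjusted p of 0.0621 (limma). Pcna, the sliding clamp and the brightest of the 39, read 13.50, 13.54, 13.51 and 13.46 in the eI hearts and 13.39 and 13.28 in the eM hearts, a difference of −0.17 that left no overlap and was not called (adjusted p 0.205, limma). Rfc1, Rfc2, Rfc4 and Rfc5 differed by 0.10, −0.07, 0.20 and 0.08. Rpa1 and Rpa2, which coat single strands, differed by 0.10 and 0.03.

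Behind the fork, Fen1, the nuclease that trims lagging strand flaps, read 11.20, 10.98, 10.93 and 10.96 in the eI hearts and 11.06 and 11.32 in the eM hearts, which overlapped. The dimmer probe set of Fen1 differed by 0.43 without overlap and was not called. Lig1, the ligase, differed by 0.02. Uhrf1, which carries DNA methylation over to the new strand, read 10.75, 11.13, 11.00 and 10.92 in the eI hearts and 11.23 and 11.58 in the eM hearts, a difference of 0.46 with an adjusted p of 0.0889 (limma). Chaf1b differed by −0.04. Among the genes of nucleotide supply, Rrm1, the large subunit of ribonucleotide reductase, read 11.34, 11.30, 11.20 and 11.11 in the eI hearts and 11.40 and 11.52 in the eM hearts. Its partner Rrm2 differed by 0.18, Dut, which clears dUTP, by 0.17, and Tk1, the thymidine kinase, by −0.17. None of these was called.

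The cyclins E, which with Cdk2 drive entry into S phase, differed by 0.09 (Ccne1) and 0.44 (Ccne2). Ccne2 had the widest range of the 39 genes over the 6 hearts, 1.08. It read 8.06, 9.06 and 9.14 in wild-type hearts 1 to 3 and 8.82, 8.84 and 9.14 in mutant hearts 1 to 3, so most of this range came from wild-type heart 1. Rpa2 had the smallest range, 0.14. The median range over the 6 hearts was 0.38 for the replication genes and 0.43 for all genes tested. Orc1 was the dimmest of the 39 tested, and Tyms was dimmer still. Its brightest probe set read 4.63, 4.99 and 5.42 in wild-type hearts 1 to 3 and 5.02, 4.91 and 5.51 in mutant hearts 1 to 3, below the filter of 5.38 on the mean. A further probe set names Tyms together with its pseudogene and was not used.

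Mutant heart 3 was the highest of the 6 hearts for 22 of the 39 replication genes (56.4%), against 24.5% of all genes tested, and mutant heart 2 was the highest for 0. Mutant heart 3 also had the largest actin 3′ minus 5′ difference, 0.77, against 0.51 in wild-type heart 3 and 0.28 to 0.41 in the eI hearts. Whether that bears on these counts was not tested. Wild-type heart 1 was the lowest for 12 (30.8%), against 24.6% of all genes, and mutant heart 1 for 11 (28.2%), against 9.16%. Within the eI hearts the median difference between mutant and wild-type was −0.03, and between the eM hearts 0.10. By their brightest probe sets, all 6 Mcm2 to Mcm7 genes were lower in the mutants among the eI hearts and higher in the mutant among the eM hearts. This pattern of signs held for 21 of the 39 genes (53.8%), against 25.5% of all genes. Not every probe set of the ring showed it. Mutant minus wild-type was 0.18 in eI and −0.10 in eM for a dimmer set of Mcm4. It was 0.03 and −0.01 for a dimmer set of Mcm7, while the dimmer set of Mcm2 kept the pattern (−0.12 and 0.33). The test of the difference itself, the interaction of genotype and letters, called none of the 39 genes and 0 of 13572 overall (0%, limma), with 1 replication gene and 7.12% of all genes at an unadjusted p under 0.05. The interaction estimate was above 0 for 29 of 39 genes, with a median of 0.14, against 47.3% of all genes. It was 0.61 for Mcm3, with the smallest adjusted p of the 39, 0.68. It rests on 1 eM heart per genotype. Counted the other way, the eM heart lay above the eI mean in both genotypes for 25 genes (64.1%, against 32.6% of all genes), with a median difference of 0.07 within wild-type and 0.22 within mutant hearts.

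Several of the genes were measured by more than 1 probe set, and these did not always read alike. The 41 genes had 89 probe sets naming them alone, 76 of them past the filter, and 28 genes had more than 1 of these. In a fit over all 27022 probe sets past the filter, 61 of the 76 were higher in the eM hearts, 7 were called higher and 1 lower (limma), where 6.75% of all probe sets were called higher and 11.7% in either direction. In the comparison of genotypes no probe set was called. The 7 were those of Pola1 and Pole already described and dimmer probe sets of Mcm2, Mcm3, Mcm5, Uhrf1 and Ccne1, so that the choice of the brightest probe set bears on which genes are called.

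The dimmer probe set of Uhrf1 read 7.57, 7.57, 7.60 and 7.52 in the eI hearts and 8.31 and 8.90 in the wild-type and mutant eM hearts, a rise of 1.04 with an adjusted p of 0.012 (limma). That of Mcm2 read 9.78, 9.90, 9.79 and 9.65 in the eI hearts and 10.43 and 10.76 in the eM hearts, a rise of 0.81 (adjusted p 0.0162, limma), where the brightest probe set differed by 0.20. The dimmer probe sets of Mcm3 and Mcm5 rose by 0.76 and 0.71 (adjusted p 0.0289 and 0.0345, limma), and that of Ccne1 by 0.46 (adjusted p 0.0446, limma). The single call downward was a dimmer probe set of Rpa2. It read 9.45, 9.53, 9.57 and 9.57 in the eI hearts and 8.87 and 8.69 in the eM hearts, a fall of 0.75 on the log2 scale (adjusted p 0.0102, limma), while the brightest probe set of Rpa2 differed by 0.03. In 7 of the 28 genes the probe sets differed in sign between eM and eI: Mcm10, Cdc45, Prim2, Rfc2, Rpa2, Rrm1 and Rrm2. The dimmer tested probe set of Rrm1 differed by −0.41, with both eM hearts below all eI hearts (adjusted p 0.0546, limma). Its brightest probe set differed by 0.22. In the comparison of genotypes the probe sets differed in sign for 15 of the 28, among them Mcm3, Mcm4, Mcm5, Mcm6 and Mcm7.

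Of the probe sets chosen for the 41 genes, 5 carry the Affymetrix suffix _x_at (Mcm5, Pold1, Fen1, Rrm2 and Ccne1) and 4 the suffix _s_at (Mcm2, Mcm3, Mcm7 and Gins2), which mark sets whose probes can match other or several transcripts. The brightest sets of Mcm2, Mcm3, Mcm5 and Ccne1, which were not called, carry these suffixes, and the called sets of the same genes carry neither. The brightest sets of Uhrf1 and Rpa2, which were not called either, carry neither suffix. Whether cross-hybridisation bears on the difference was not tested.

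**Figure D4:**
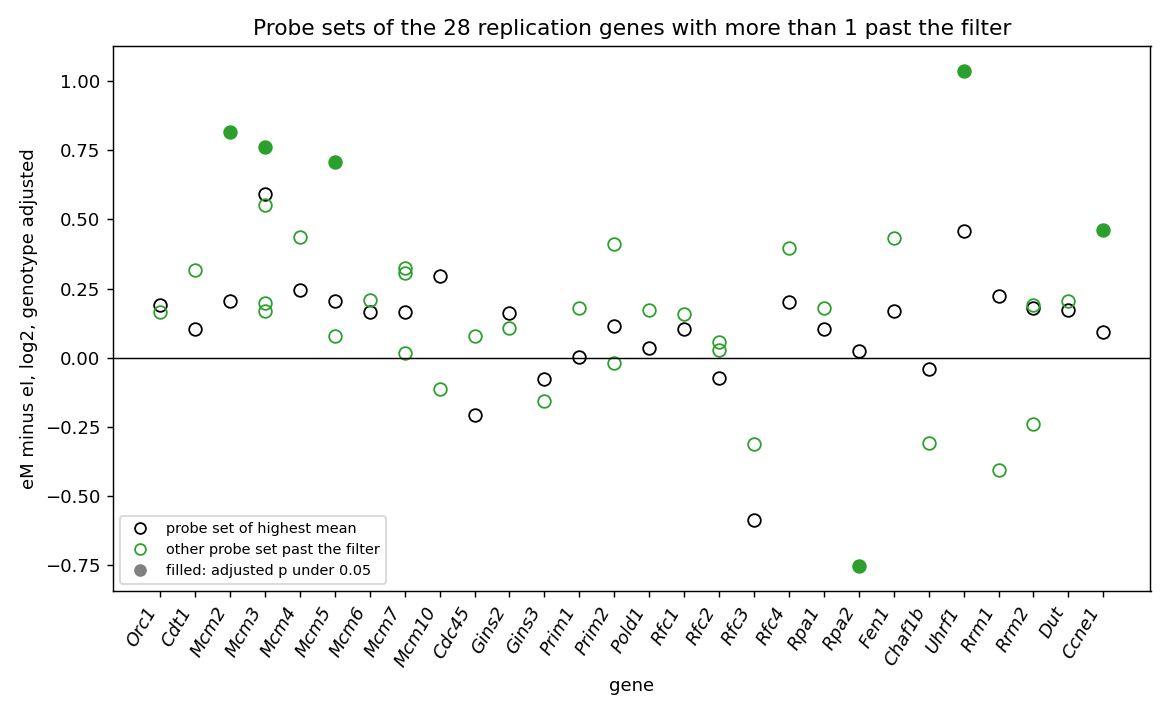
Difference eM minus eI (log2, genotype adjusted) for every probe set past the filter of the 28 replication genes with more than 1, black for the brightest and green for the others, filled where the adjusted p is under 0.05 (limma, 27022 probe sets). The filled green points of Mcm2, Mcm3, Mcm5, Uhrf1 and Ccne1 lie above the black ones, that of Rpa2 lies far below it, and both probe sets of Rfc3 lie below 0.

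The rest of the replication machinery was read from a separate list. Of 53 further replication genes listed, 50 were tested. Of the 50, 37 (74%) were higher in the mutants, against 51.1% of all genes. Their median difference between mutant and wild-type was 0.04, with 0 called. Between eM and eI, 36 of 50 (72%) were higher, against 44.8% of all genes, with a median of 0.12. Limma called 3 higher (6%, against 4.47% of all genes) and 0 lower. These were Mcmbp, which binds the helicase ring (0.43, adjusted p 0.0319), Atad5, which helps unload the clamp (0.50, adjusted p 0.0463), and Chtf18, of an alternative clamp loader (0.63, adjusted p 0.0478). Of the 21 genes of E2F, Rb and S phase control, 12 (57.1%) were higher in the eM hearts, with a median of 0.02. Limma called 2 of them higher (9.52%), where 4.47% of all genes were called higher and 10.3% in either direction. These 2 were E2f7 (0.37, adjusted p 0.0392, limma) and E2f8 (0.47, adjusted p 0.0493, limma), repressors of the E2F family. Of 23 mitotic genes tested, 19 (82.6%) were higher in the eM hearts, against 44.8% of all genes, with a median of 0.18. Limma called 6 higher (26.1%, against 4.47% of all genes), among them Mki67 (0.62) and Plk1 (0.68). In the comparison of genotypes 22 of the 23 mitotic genes were higher in the mutants, against 51.1% of all genes, with a median of 0.09 and 0 called. Their median difference was 0.03 among the eI hearts and 0.22 between the eM hearts, and their mean level was 10.57 and 10.49 in mutant hearts 1 and 2 and 10.91 in mutant heart 3.

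The replication genes were also divided by the E2F letters in their windows. The median difference between eM and eI was 0.16 over 13 genes with the letters, 11 of them above 0, and 0.10 over 19 genes without, 15 of them above 0. Pola1, Mcm3 and Rfc3, at opposite ends of the comparison, all belong to the first set. In the promoters of the mitotic genes, counted by gene, E2F letters stood in 1 of 21 (4.76%) and CCAAT in 18 of 21 (85.7%), while 12 of 41 of the other replication genes had E2F letters (29.3%) and 0 of 12 of the heart muscle markers did.

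Markers of other cell types also differed between eM and eI hearts. Over all genes, 44.8% were higher in the eM hearts, and limma called 4.47% higher and 5.82% lower. All 9 erythroid markers tested were lower in the eM hearts (median −1.01, 5 called), their mean level being 9.67 to 10.35 in the eI and 9.12 to 9.14 in the eM hearts. All 8 leukocyte markers tested were lower (median −1.01, 5 called), at 7.21 to 7.51 and 6.24 to 6.41, as were all 6 liver and endoderm markers (median −0.99, 1 called), at 6.67 to 8.38 and 5.29 to 5.61. Fibroblast and collagen markers were lower in 11 of 12 (median −0.57, 2 called), at 10.32 to 10.69 and 9.28 to 10.07. Epicardial markers were higher in 9 of 11 (median 0.60, with 5 called higher and 1 lower), at 8.42 to 8.87 and 9.04 to 9.13. Of the heart muscle markers 6 of 12 were higher and 3 were called, and of the endothelial markers 1 was called lower, while none of the neural markers was called. Hba-a1, Ahsg, Fgb, Muc16, Ptprc, Cd14 and Foxd3 were too dim to test. The part of these cell types, and of the actin and 18S controls, in the differences of the replication genes was not tested.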

How the data were processed

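Biotin-labelled cRNA of 6 mouse hearts was hybridised to Affymetrix mouse expression arrays, 1 heart to an array, per the labels' protocols. The authors summarised the scans with RMA, the robust multi-array average, according to the submitters' processing notes (no version is named), and deposited log2 intensities between 2.42 and 14.79. Scanner files were not used, so the background correction was not varied and the level of a probe set above background is unknown. The number of arrays limits the precision, and with the 6 mice of the design text taken as 1 per array, p-values measure the spread between mice. In mutant minus wild-type, fitted with no covariate, that spread also holds the difference between eM and eI hearts. With the letters as a block, the SE went from 0.22 to 0.09 for Pola1 and from 0.09 to 0.08 for Lig1. That fit also called 0 genes.

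Of 45101 probe sets, 64 controls were left out. The platform annotation named 1 gene for 34945 of the others, several for 932 and none for 9160, and 34741 gene IDs matched RefSeq (GRCm38.p6). Probe sets in the lowest 40% by mean over the 6 arrays (below 5.38) were left out, leaving 27022. The brightest probe set of each gene gave 13572 genes. Mutant minus wild-type (no covariate), eM minus eI (genotype adjusted) and their interaction were fitted over all of them with limma 3.58.1 in R 4.3.3 (two-sided, Benjamini-Hochberg, threshold 0.05, 95% intervals). The fits were tested on simulated data, with noise drawn independently for each gene and heart. Its spread came from a fit with genotype and letters. The genotype fit was therefore not tested under the spread between eM and eI hearts. Plots were made in Python 3.11.15 with matplotlib 3.10.9.

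The genes, their roles, the other lists and the rule for naming were chosen with earlier results of these data known. Values in every heart are given for genes past the threshold, the 3 of smallest p per direction in each comparison, the brightest and dimmest, and at least 1 per role; of the other lists up to 4 called genes per direction are named. Mcm5, Mcm6 and single further genes, the dimmer probe sets, the Affymetrix suffixes and the patterns over hearts were chosen after their values were seen. Groups and replicate numbers came from the sample titles, the letters from the descriptions. Same-numbered wild-type and mutant hearts deviated together (correlations of 0.18, 0.30 and 0.70). By the rule used, every pair over 0.1, the numbers were handled as paired in 1 alternative fit, although the titles name no pairs. The eM hearts are pair 3, and among the eI hearts the differently numbered pairs correlated more, at 0.43 (wild-type 2 with mutant 1) and 0.46 (wild-type 1 with mutant 2). With heart 3 apart in both genotypes, hearts 1 and 2 deviate the other way in each. The rule therefore cannot decide whether the numbers are pairs. The alternatives were other filters, quantile normalization, centring on the median, trend and robust fits, array weights, other choices of probe set, blocks for number and letters, and leaving out each heart. No set test was run.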

Additional observations from a re-analysis of the deposited data

Results flagged for a closer look

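By Dixon's outlier test, a single one of the 4 eI hearts lay far from the others in 3 of the 39 tested replication genes. Chance gives about 1 in 20, so this count is near the chance rate and no conclusion is drawn from it. No share over all genes was set beside it. The 4 hearts pool both genotypes. Gins3 read 8.0 in wild-type heart 2 and 7.74 to 7.75 in the other eI hearts. Tk1 read 10.48 in mutant heart 1 and 10.26 to 10.29 in the others. Dut read 10.70 in wild-type heart 1 and 10.98 to 11.03 in the others. The 3 genes point to 3 different hearts.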

How the results depend on the processing

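No replication gene was called between mutant and wild-type hearts under any alternative, and no call there changed with the replicate number as a block (median over the 39 genes 0.01, paired by number) or the letters as a block. Over all genes, leaving out each heart gave 0 to 2 calls. The median of the replication genes ran from −0.09 with array weights to 0.04, within the spread between hearts. Between eM and eI, the median stayed above 0 throughout. It ran from 0.067 (without mutant heart 3) to 0.22 over the fits that left out a heart, and from 0.15 to 0.20 over the other settings. The calls moved more. With 2 replication genes called as reported (10.3% of all genes), 1 was called with no filter (4.83% of all genes) and 1 with centred arrays (7.66%), Pola1 in both. Quantile normalization gave 3 (11.4%). The 60% filter (15.7%), trend and robust fits (13%), array weights (11.9%) and no genotype term (13.9%) gave 4 each. The mean of the probe sets gave 5 (12.6%) and the probe set of largest variance 8 (13.6%). Every probe set past the filter, an alternative chosen after seeing the data, also gave 8 (11.7% of all probe sets). Leaving out each heart gave 0 to 4 called replication genes and 0 to 1937 called genes of all; no filter gave 878 genes. The interaction could be fitted only where an eM heart of each genotype remained; it called 0 genes in each such fit, with a median from 0.14 to 0.17. Other scalings moved the median of all genes by less than 0.1. With 2 eM hearts, 1 of each genotype, differences within a genotype have no replicate.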
